A study of Mus musculus with 4 samples.

Results

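Grainyhead-like (Grhl), Ovo-like (Ovol) and epithelial splicing regulatory (Esrp) genes, together with Elf3, Ehf and Klf5, hold cells in an epithelial state, and they were followed across 4 mouse oral cancer cell lines. The 10 genes (Grhl1, Grhl2, Grhl3, Ovol1, Ovol2, Esrp1, Esrp2, Elf3, Ehf and Klf5) were chosen by name and found by gene symbol, all 10 were measured with 1 probe set each, and they are 10 of 19505 named genes on the Affymetrix Mouse Clariom S array. NHRI-HN1 was selected by sphere culture, which favors cells growing without attachment, from M1-2, and NHRI-HN2 was selected in the same way from M2-3. M1-2 and M2-3 were grown from separate tongue tumors of C57BL/6 mice that had received 4-nitroquinoline 1-oxide (4-NQO, a carcinogen) and arecoline (an areca nut alkaloid) in the drinking water, so all 4 lines share that carcinogen treatment and the labels give the same serum medium for all of them. NHRI-HN1 is the line that formed tumors in syngeneic mice, and the study set it against the 3 others. Each line was measured on 1 array, and each tumor of origin is a single tumor. Values are the deposited ones, taken as log2 expression, where 1 unit stands for a 2-fold change if the base is 2. The lower quartiles of the arrays lay between 3.02 and 3.16, no detection calls accompany the values, and a value near or below 3.16 is therefore among the dimmest signals.

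Grhl proteins are transcription factors that bind enhancers of epithelial adhesion and barrier genes. Ovol proteins are zinc finger repressors that hold down mesenchymal regulators such as Zeb1, and Zeb1 in turn represses epithelial genes, so that these factors oppose each other. Esrp proteins are RNA-binding proteins that direct the epithelial splice forms of transcripts such as Fgfr2 and Cd44, and Elf3, Ehf (ETS factors) and Klf5 (a Krüppel-like factor) drive programs of epithelial growth and differentiation. Loss of these genes is a known part of epithelial-mesenchymal transition (EMT) in carcinoma.

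The members with the widest differences, Esrp1, Esrp2 and Grhl2, divided the lines mainly by tumor of origin, while Ehf and Grhl3 set only M2-3 apart. Grhl2 and Esrp1 were near the bottom of the scale in NHRI-HN1 and M1-2 and well above it in NHRI-HN2 and M2-3. Esrp2 and Klf5 also set NHRI-HN1 below its parent. These genes and Ehf, Grhl3, Ovol1 and Ovol2 were at least 1 unit higher in M2-3 than in any other line. Elf3 was dim on all 4 arrays.

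**Figure D1:**
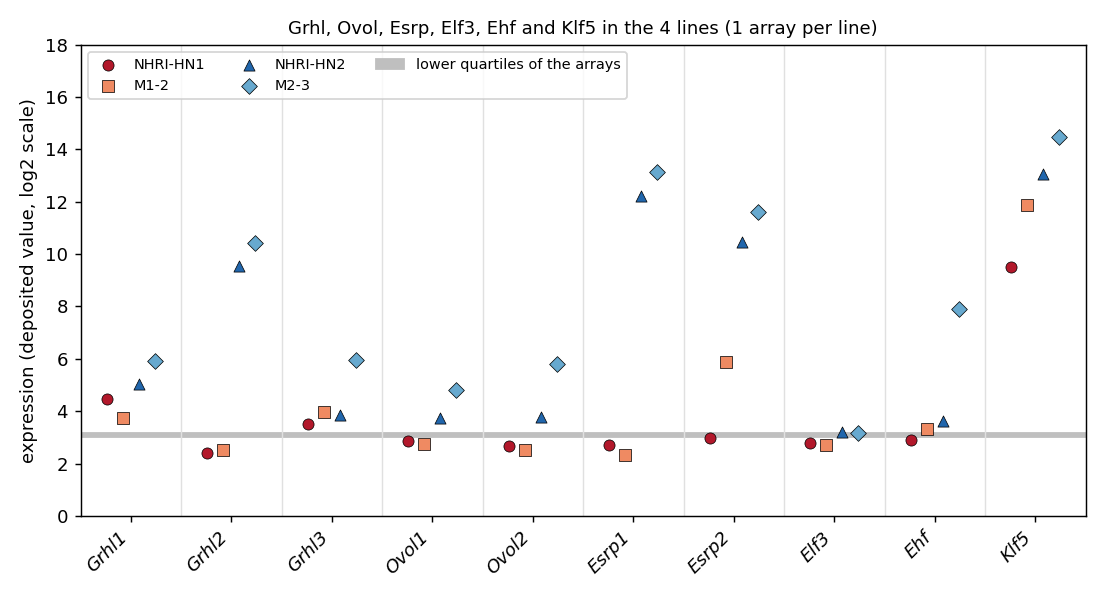
Expression of the 10 genes on the log2 scale of the deposited values, with 1 point per line and the range of the 4 arrays' lower quartiles (3.02 to 3.16) as a gray band. Grhl2 and Esrp1 lie below the band in NHRI-HN1 and M1-2 and at 9.55 or more in NHRI-HN2 and M2-3, and Elf3 lies within 0.47 units in all lines.

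Grhl2, the family member most widely active in simple and stratified epithelia, was 2.40 in NHRI-HN1 and 2.52 in M1-2, against 9.55 in NHRI-HN2 and 10.42 in M2-3. The lines of the M1-2 tumor were both below the lower quartile of their array, and 7.03 units separated the higher of them from the lower line of the M2-3 tumor. Grhl1, which acts on desmosomal genes of the epidermis, was 4.47 in NHRI-HN1 and 3.75 in M1-2, against 5.05 in NHRI-HN2 and 5.90 in M2-3. These groups did not overlap either, but the gap was 0.58 units. Grhl3, a factor of skin barrier formation and wound closure, was 3.51 in NHRI-HN1 and 3.96 in M1-2, against 3.87 in NHRI-HN2 and 5.94 in M2-3. Only M2-3 stood apart for Grhl3, and M1-2 and NHRI-HN2 lay within 0.09 units of each other with their order reversed.

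Ovol1, expressed in differentiating epidermis, was 2.86 in NHRI-HN1 and 2.73 in M1-2, against 3.72 in NHRI-HN2 and 4.81 in M2-3. Ovol2, a repressor of Zeb1 in epithelial progenitors, was 2.68 in NHRI-HN1 and 2.50 in M1-2, against 3.76 in NHRI-HN2 and 5.82 in M2-3. For both genes M2-3 was highest, NHRI-HN2 second, and the lines of the M1-2 tumor lay below their arrays' lower quartiles. The gap between the tumors was 0.86 units for Ovol1 and 1.08 units for Ovol2.

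Esrp1, the splicing factor with the widest difference of the members, was 2.70 in NHRI-HN1 and 2.31 in M1-2, against 12.21 in NHRI-HN2 and 13.15 in M2-3. This gene spanned 10.84 units between M1-2 and M2-3. Its paralog Esrp2 was 2.97 in NHRI-HN1 and 5.86 in M1-2, against 10.48 in NHRI-HN2 and 11.59 in M2-3. Unlike Esrp1, Esrp2 had an intermediate value in M1-2 and was at the bottom of the scale only in NHRI-HN1.

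Klf5, a factor of basal epithelial proliferation, was 9.51 in NHRI-HN1 and 11.86 in M1-2, against 13.05 in NHRI-HN2 and 14.46 in M2-3. Klf5 was far from the dimmest signals on every array, so its differences involved no value near the lower quartile. Ehf, an ETS factor of glandular and squamous epithelia, was 2.90 in NHRI-HN1 and 3.32 in M1-2, against 3.61 in NHRI-HN2 and 7.89 in M2-3. Its signal was clear in M2-3 alone. Elf3, the related ETS factor, was 2.80 in NHRI-HN1 and 2.72 in M1-2, against 3.19 in NHRI-HN2 and 3.16 in M2-3, so that no line was above 3.19.

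Counted per line, 7 of the 10 genes were at or below the lower quartile of the array in NHRI-HN1 (Grhl2, Ovol1, Ovol2, Esrp1, Esrp2, Elf3 and Ehf) and 5 in M1-2 (the same without Esrp2 and Ehf), but none in NHRI-HN2 or M2-3. Of all named genes, 24.5% to 24.8% were at or below that quartile on each array. A value above the quartile does not by itself show expression. In NHRI-HN2, Elf3, Ehf, Ovol1, Ovol2 and Grhl3 lay between 3.19 and 3.87, under the array median of 4.67. In M2-3, Elf3 was 3.16. For 8 of the 10 genes M2-3 was the highest line and NHRI-HN2 the second, an order that 16.6% of all genes had. The exceptions were Grhl3, with M1-2 second, and Elf3, with NHRI-HN2 0.03 units above M2-3. With 1 array per line, neighbors in these orders could not be tested against each other.

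The first comparison asked whether the lines of one tumor differed from those of the other by more than each sphere-derived line differed from its parent. Grhl2 and Esrp1 passed the test and were lower in NHRI-HN1 and M1-2 than in NHRI-HN2 and M2-3 (limma, with Benjamini-Hochberg adjustment over 19505 genes). For Grhl2 the log2 difference was -7.53 (standard error 0.53, adjusted p = 0.0238 from limma). For Esrp1 the difference was -10.18 (standard error 0.56, adjusted p = 0.0230 from limma). These 2 of 10 members compare with 0.446% of all genes called lower (87 genes, against 24 called higher). The other 8 differences were also negative and did not pass. Esrp2 had -6.62 (standard error 1.09, adjusted p = 0.112), Klf5 -3.07 (standard error 0.96, adjusted p = 0.238), Ovol2 -2.20 (adjusted p = 0.251) and Ovol1 -1.47 (adjusted p = 0.230), all from limma. Ehf had -2.64 (adjusted p = 0.411), Grhl1 -1.365 (adjusted p = 0.297), Grhl3 -1.17 (adjusted p = 0.477) and Elf3 -0.415 (adjusted p = 0.395), all from limma. Of these 8, Klf5 was -1.90 without NHRI-HN1. Without M2-3, Ehf was -0.50, Grhl3 -0.135, Ovol2 -1.17, Ovol1 -0.93 and Grhl1 -0.94. Without NHRI-HN2, Ehf was -4.78 and Grhl3 -2.205. Before adjustment 7 of 10 members were below 0.05, against 9.73% of all genes lower at that level. Both lines of the M1-2 tumor were at least 1 unit below both lines of the M2-3 tumor for 5 members (Grhl2, Ovol2, Esrp1, Esrp2 and Klf5), against 7.2% of all genes. The median difference was -2.42 over the members, between the values of Ehf and Ovol2, and 0.03 over all genes. A sphere-derived line is not independent of its parent and each tumor is 1 tumor, so these p-values speak of these 4 lines only. Both calls ended without NHRI-HN2 (adjusted p = 0.188 for Grhl2 and Esrp1), without M2-3 (adjusted p = 0.349 for both) and with sphere culture as a block (adjusted p = 0.0626 for Grhl2 and 0.0606 for Esrp1), all from limma, while the differences stayed at -7.09 or below.

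The second comparison asked how NHRI-HN1, the tumorigenic line, differed from M1-2, NHRI-HN2 and M2-3, as NHRI-HN1 minus the mean of these lines. No member was called lower by limma, against 0.113% of all genes, and 2 of 10 members, Esrp2 and Klf5, were below 0.05 before adjustment, against 3.42% of all genes lower at that level. Esrp2 had a log2 difference of -6.34 (95% confidence interval -12.34 to -0.34, adjusted p = 0.509 from limma). For Klf5 it was -3.61 (95% confidence interval -6.43 to -0.80, adjusted p = 0.416 from limma). These 2 members were also the ones for which NHRI-HN1 lay at least 1 unit under every other line, as it did for 4.99% of all genes. Esrp1 had -6.52 with an interval from -18.06 to 5.01 and Grhl2 had -5.10 with an interval from -13.48 to 3.29, and M1-2, one of the 3 lines, was about as low as NHRI-HN1 for both genes. Without M1-2, its own parent, NHRI-HN1 is set against the lines of the other tumor only, which is the same fit as the comparison of tumors without M1-2, and limma called Grhl2 (-7.59, adjusted p = 0.0209), Esrp1 (-9.98, adjusted p = 0.0184) and Esrp2 (-8.07, adjusted p = 0.0217). With the tumor of origin as block, the same differences were -0.12 for Grhl2, 0.39 for Esrp1 and -2.89 for Esrp2, and limma called no member, as without NHRI-HN2 or M2-3. The median over the members was -1.69, against -0.01 over all genes.

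**Figure D2:**
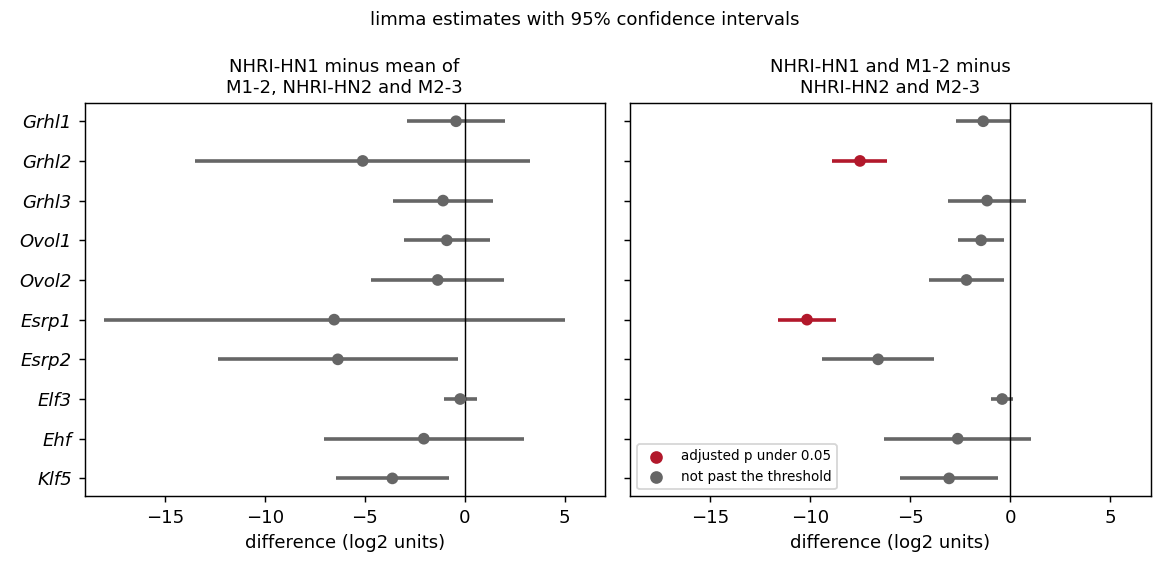
Log2 differences of the 10 genes from limma with 95% confidence intervals, for NHRI-HN1 minus the mean of the 3 other lines (left) and for NHRI-HN1 and M1-2 minus NHRI-HN2 and M2-3 (right). Red marks an adjusted p under 0.05, reached by Grhl2 (-7.53) and Esrp1 (-10.18) on the right and by no member on the left.

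Each sphere-derived line was then set beside its own parent, as values without a test. Between NHRI-HN1 and M1-2 the members' differences ran from -2.89 to 0.72, with a median of -0.02 that includes 5 genes below the lower quartile in both lines. Esrp2 and Klf5 made up the 2 members at least 1 unit lower in NHRI-HN1, by -2.89 and -2.35, against 12.2% of all genes. Of those 5, Grhl2, Ovol1, Ovol2 and Esrp1 differed by -0.12, 0.13, 0.18 and 0.39, and neither a change nor sameness could be read from such dim values.

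In NHRI-HN2, 9 of 10 members were below M2-3, against 54% of all genes, with a median difference of -1.10. Ehf had the widest gap, -4.28, followed by Grhl3 at -2.07 and Ovol2 at -2.06. With Klf5 at -1.41, Esrp2 at -1.11 and Ovol1 at -1.09, 6 members were at least 1 unit lower in NHRI-HN2, against 5.69% of all genes. The same 6 genes were those for which M2-3 lay at least 1 unit above all 3 other lines, as it did for 596 of all 19505 genes. By at least 2 units it did so for 2 members, Ovol2 and Ehf, and for 99 of all genes. Grhl2 and Esrp1 stayed close to the parent, at -0.87 and -0.94. Markers of fibroblasts were higher in NHRI-HN2 than in M2-3, with a median difference of 2.09 against -0.06 over all genes. Of 11 markers, 8 were at least 1 unit higher, a share not counted over all genes, and none that much lower (5.69% of all genes). Vim, the mesenchymal intermediate filament, was 14.74 in NHRI-HN2 and 6.90 in M2-3, and the listed markers spanned 2.72 to 14.74 in NHRI-HN2 and 2.49 to 8.42 in M2-3. In NHRI-HN1 against M1-2 the same markers moved both ways, with a median difference of 0.87 against 0.0 over all genes. Of the 11 markers, 3 were at least 1 unit lower (12.2% of all genes) and 5 at least 1 unit higher (share over all genes not counted). Their part in the members' differences was not tested. In RNA from a whole culture, fewer cells that express a gene and less RNA per cell cannot be told apart.

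**Figure D3:**
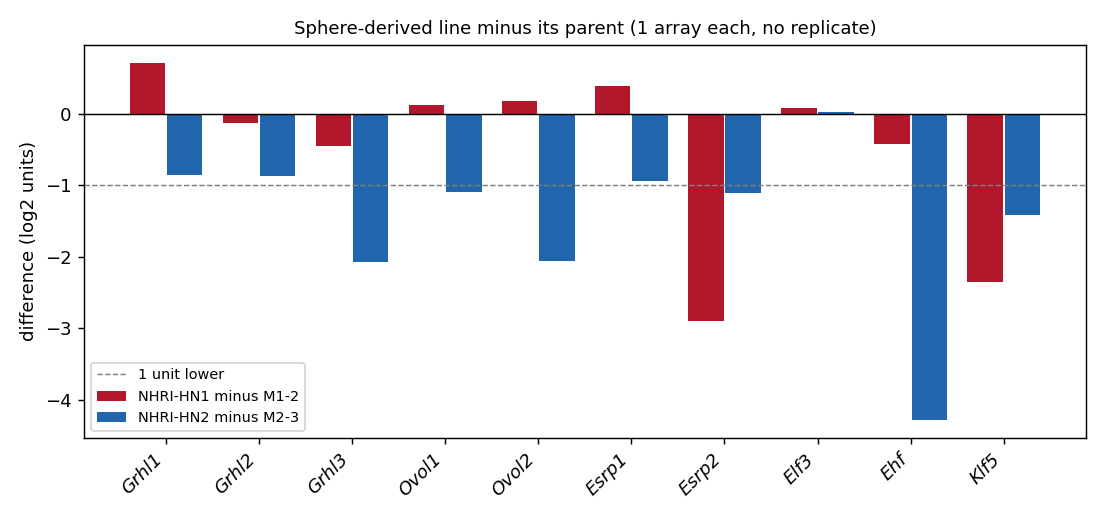
Difference of each sphere-derived line from its parent for the 10 genes in log2 units, with NHRI-HN1 minus M1-2 in red and NHRI-HN2 minus M2-3 in blue. Blue bars are negative for 9 genes and reach -4.28 for Ehf, while red bars pass -1 for Esrp2 and Klf5.

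Relatives of the members in the same gene families gave no call. The remaining grainyhead relatives Tfcp2, Tfcp2l1 and Ubp1 differed by 0.38, 0.10 and 0.07 between the tumors, and Ovol3 by 0.18. Limma called none of these 4 genes, and none of 5 other ETS factors or 16 other Krüppel-like factors, in either comparison. Among the Krüppel-like factors, Klf4, a factor of epithelial differentiation, was 4.93 in NHRI-HN1 against 10.40 in M1-2, 11.99 in NHRI-HN2 and 10.99 in M2-3, and Klf6, a factor of growth arrest, was 9.50 in NHRI-HN1 against 13.00, 14.33 and 13.34 in the same lines. For these genes NHRI-HN1 was the line apart (limma, adjusted p = 0.0762 and 0.141 against the 3 others), and NHRI-HN1 was at least 1 unit below all 3 other lines for 5 of 16 (4.99% of all genes) and at least 1 unit above them for 1, Klf12 (5.89% of all genes).

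Of 9 genes described as targets of Grhl factors, limma called Epcam and Rab25 lower in the lines of the M1-2 tumor (0.446% of all genes) and Cdh1 lower in NHRI-HN1 (0.113% of all genes), and the other 6 were not called. Epcam, an epithelial adhesion molecule, was 2.84 in NHRI-HN1 and 3.15 in M1-2, against 10.78 in M2-3 and 0.22 units more in NHRI-HN2 (log2 difference -7.90, adjusted p = 0.0230 from limma). Rab25, a GTPase of apical recycling, was 4.28 in NHRI-HN1 and 4.49 in M1-2, against 11.89 in NHRI-HN2 and 12.73 in M2-3 (log2 difference -7.93, adjusted p = 0.0238 from limma). Cdh1, encoding E-cadherin, was 3.71 in NHRI-HN1, against 14.82 in M1-2, 16.06 in NHRI-HN2 and 16.31 in M2-3 (log2 difference -12.02, adjusted p = 0.0340 from limma). M1-2 therefore combined Grhl2 at 2.52 and Esrp1 at 2.31 with a Cdh1 value within 1.5 units of the lines in which Grhl2 and Esrp1 were high. Dsg1a, the desmoglein of upper epidermal layers, was 3.30 in NHRI-HN1 and 3.00 in M1-2, against 5.66 in NHRI-HN2 and 9.88 in M2-3 (adjusted p = 0.234 from limma), and 4.22 units separated NHRI-HN2 from M2-3. Cldn3 and Cldn4, tight junction claudins, were between 2.68 and 3.35 in all lines.

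The same division appeared in a wider list of 29 epithelial surface and junction genes, which holds 5 of those targets (Cdh1, Cldn3, Cldn4, Epcam and Rab25). Limma called 8 of 29 lower in the lines of the M1-2 tumor, against 0.446% of all genes, and none higher: Epcam, Rab25, the sorting adaptor Ap1m2, the tricellular junction receptor Lsr, the membrane protease matriptase (St14), its inhibitors Spint1 and Spint2, and the desmosomal plaque protein Pkp3. St14 was 2.74 in NHRI-HN1 and 2.55 in M1-2, against 8.89 in NHRI-HN2 and 9.09 in M2-3. Spint2 was 3.71 in NHRI-HN1 and 3.64 in M1-2, against 11.16 in NHRI-HN2 and 11.43 in M2-3. In these genes M1-2 was as low as NHRI-HN1, as it was for Grhl2 and Esrp1. Cdh1 and F11r, a junctional adhesion molecule, were called lower in NHRI-HN1 (0.113% of all genes), and no gene of the list was called in both comparisons. F11r was 3.42 in NHRI-HN1, against 10.14 in M1-2, 11.01 in NHRI-HN2 and 11.46 in M2-3 (adjusted p = 0.0454 from limma). Dsp, the desmosomal protein desmoplakin, had a similar profile, at 2.67 in NHRI-HN1 against 12.42 in M1-2, 14.60 in NHRI-HN2 and 15.53 in M2-3 (adjusted p = 0.0514 from limma). The medians of the list were -2.53 between the tumors and -2.60 for NHRI-HN1 against the 3 others. Leaving out NHRI-HN2 or M2-3, or adding the block, left 0 calls over all genes in both comparisons, those of this list included, and fitting without an intensity trend left 0 calls for NHRI-HN1 against the 3 others (Cdh1, F11r and the calls in NHRI-HN1 named below among them).

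**Figure D4:**
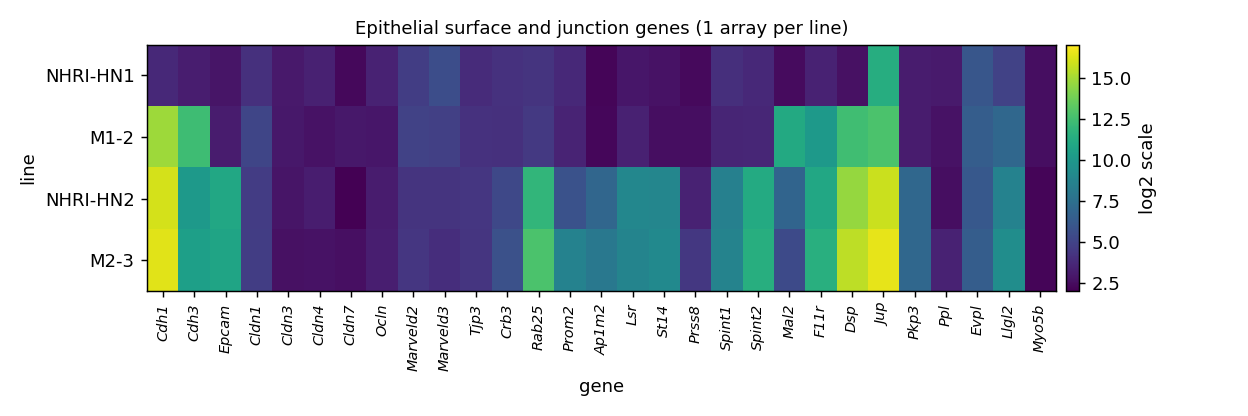
Heat map of 29 epithelial surface and junction genes (columns) in the 4 lines (rows), colored by the deposited value on the log2 scale. Epcam, Rab25, Ap1m2, Lsr, St14, Spint1, Spint2 and Pkp3 are dark in NHRI-HN1 and M1-2, whereas Cdh1, F11r and Dsp are dark in NHRI-HN1 alone.

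Other epithelial transcription factors also divided in this way. Of 9 measured, limma called Trp63 and Barx2 lower in the lines of the M1-2 tumor (0.446% of all genes) and Sox2 lower in NHRI-HN1 (0.113% of all genes). By size alone, both lines of the M1-2 tumor were at least 1 unit below both others for 4 of 9 (7.2% of all genes). NHRI-HN1 was at least 1 unit below all 3 other lines for 5 of 9 (4.99% of all genes), Foxa1 and Pitx1 among them. Barx2, a homeobox factor, was 3.29 in NHRI-HN1 and 3.05 in M1-2, against 11.21 in NHRI-HN2 and 12.51 in M2-3 (log2 difference -8.69, adjusted p = 0.0238 from limma). Sox2, a factor of squamous progenitors, was 3.85 in NHRI-HN1, against 11.90 in M1-2, 11.71 in NHRI-HN2 and 11.80 in M2-3 (log2 difference -7.95, adjusted p = 0.0340 from limma). Of 14 keratinocyte markers, 7 were called lower in the lines of the M1-2 tumor (0.446% of all genes), as Grhl2 and Esrp1 were. Trp63 is in both lists and is 1 of these 7 markers. Another 4 (Krt14, Krt17, Itgb4 and Perp) were called lower in NHRI-HN1 (0.113% of all genes). Unlike Grhl2 and Esrp1, these were high in M1-2, at 15.38, 13.53, 13.74 and 15.34. The levels of the 14 markers spanned 2.38 to 5.15 in NHRI-HN1, 2.18 to 15.38 in M1-2, 2.74 to 17.70 in NHRI-HN2 and 3.12 to 18.76 in M2-3. Of 13 skeletal muscle markers, 8 were called higher in NHRI-HN1, against 0.508% of all genes, with a median level of 11.68 in NHRI-HN1 against 3.28 to 4.26 in the other lines. The other 5 were not called. Of these, Des, Actc1, Tnnt1 and Tnnt3 were higher in NHRI-HN1 by 10.95, 5.80, 5.56 and 4.77, and the defining regulator Myod1 was 3.32 in NHRI-HN1 against 2.48 to 2.75. NHRI-HN1 was at least 1 unit above all 3 other lines for 12 of 13 (5.89% of all genes). The part of these programs in the members' differences was not tested. Of 7 immune markers, 4 or 5 were at or below the lower quartile on each array. Of 9 housekeeping genes, limma called none. Between the tumors Tbp and Hprt differed by -1.51 and -1.495, beside -1.47 for Ovol1, and the other housekeeping genes by -0.565 to 0.29. For NHRI-HN1 against the 3 others Tbp and Hprt differed by -1.38 and -1.90, beside -0.89 for Ovol1 and -1.35 for Ovol2. The other housekeeping genes differed there by -0.59 to 0.07.

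Transcription factors of EMT, several of which oppose the members, gave no call. Zeb1, a repressor of epithelial genes including Esrp1, was 13.37 in NHRI-HN1 and 11.95 in M1-2, against 7.65 in NHRI-HN2 and 4.08 in M2-3 (log2 difference 6.80, standard error 1.30, adjusted p = 0.145 from limma). Twist1, another EMT factor, was 7.37 in NHRI-HN1 and 7.35 in M1-2, against 4.48 in NHRI-HN2 and 4.56 in M2-3 (log2 difference 2.84, adjusted p = 0.103 from limma). Snai2, encoding Slug, had the opposite order of tumors, at 15.09 in NHRI-HN1 and 13.90 in M1-2, against 16.40 in NHRI-HN2 and 16.27 in M2-3. Of 7 such factors limma called none in either comparison. Before adjustment 2 were higher and 1 lower between the tumors, and 2 were higher in NHRI-HN1 against the 3 others. In both lines of the M1-2 tumor, 1 factor was at least 1 unit below both others (7.2% of all genes). Another 3 were at least 1 unit above, a share not counted over all genes. NHRI-HN1 was at least 1 unit above all 3 other lines for 3 factors (5.89% of all genes). Zeb1 and Prrx1, a mesenchymal homeobox factor, were also higher in NHRI-HN2 than in M2-3, by 3.57 and 8.43.

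**Figure D5:**
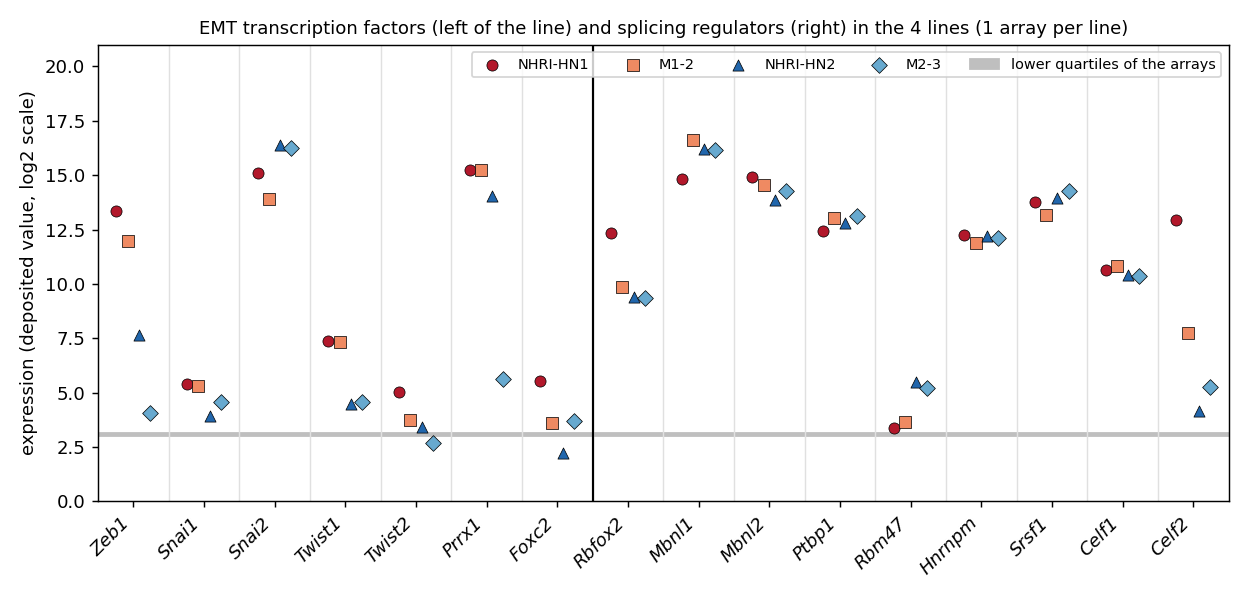
Expression of 7 EMT transcription factors and 9 splicing regulators on the log2 scale, with 1 point per line and the arrays' lower quartiles as a gray band. Zeb1 is highest in NHRI-HN1 (13.37) and lowest in M2-3 (4.08), and Celf2 and Rbfox2 stand above the other lines in NHRI-HN1.

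Of 9 other splicing regulators of EMT, limma called none in either comparison. Rbm47, an epithelial RNA-binding protein, was 3.37 in NHRI-HN1 and 3.65 in M1-2, against 5.50 in NHRI-HN2 and 5.21 in M2-3 (log2 difference -1.85, adjusted p = 0.155 from limma). Rbfox2, which favors mesenchymal splice forms, was 12.32 in NHRI-HN1, against 9.86 in M1-2, 9.41 in NHRI-HN2 and 9.36 in M2-3 (log2 difference 2.78, adjusted p = 0.241 from limma). Among 6 genes whose transcripts Esrp proteins splice, Fgfr2, a fibroblast growth factor receptor with epithelial and mesenchymal forms, was 4.63 in NHRI-HN1 and 6.96 in M1-2, against 9.90 in NHRI-HN2 and 11.79 in M2-3 (log2 difference -5.05, adjusted p = 0.156 from limma). Cd44 was 14.24 in NHRI-HN1, against 17.89 in M1-2, 16.50 in NHRI-HN2 and 16.33 in M2-3. These are gene-level values and do not show which splice form was present.

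The genes with profiles closest to 3 of the members, by Euclidean distance between mean-centered values over the 4 lines, included further epithelial genes. Nearest to Grhl2 were Kcnk1 (distance 0.20), a potassium channel, Upk3bl (0.26), a uroplakin-like protein, and S100a14 (0.33), a calcium-binding protein. Kcnk1 was 3.16 in NHRI-HN1 and 3.41 in M1-2, against 10.59 in NHRI-HN2 and 11.32 in M2-3. Nearest to Esrp1 were Car12 (0.36), a carbonic anhydrase, Gpx2 (0.59), an epithelial glutathione peroxidase, and Dsg3 (0.93), the desmoglein of basal keratinocytes. Nearest to Ovol1 were Smug1 (0.12), a DNA repair glycosylase, Mthfsl (0.12) and Ccdc17 (0.12). Ovol1 spanned 2.08 units, and a small distance by this measure requires a like spread.

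Promoter sequences (250 bases before to 50 after the start of transcription, RefSeq, GRCm38.p6) were at hand for 4 members, Grhl1, Grhl3, Ovol2 and Elf3. Grhl3 and Ovol2 are shown because M2-3 stood at least 1 unit above every other line for both and both have an entry, and Rab25 because it is a Grhl target called with Grhl2. Capitals mark CACCTG or its reverse complement CAGGTG, the E-box form that Zeb and Snail proteins bind. Grhl3 lies at chr4:135573583-135573882 (minus strand), Ovol2 at chr2:144331313-144331612 (minus strand) and Rab25 at chr3:88548230-88548529 (minus strand), each written 5′ to 3′ in the direction of transcription.
Grhl3: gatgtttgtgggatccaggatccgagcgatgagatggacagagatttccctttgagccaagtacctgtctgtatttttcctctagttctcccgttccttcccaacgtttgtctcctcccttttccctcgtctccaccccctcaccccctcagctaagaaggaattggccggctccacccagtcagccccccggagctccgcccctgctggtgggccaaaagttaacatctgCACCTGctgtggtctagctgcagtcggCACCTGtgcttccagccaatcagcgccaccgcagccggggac
Ovol2: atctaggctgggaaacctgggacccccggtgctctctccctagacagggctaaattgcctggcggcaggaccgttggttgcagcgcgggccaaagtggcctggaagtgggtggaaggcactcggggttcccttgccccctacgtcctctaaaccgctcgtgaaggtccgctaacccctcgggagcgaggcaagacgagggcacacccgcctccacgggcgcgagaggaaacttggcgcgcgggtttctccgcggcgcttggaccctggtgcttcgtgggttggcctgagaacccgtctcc
Rab25: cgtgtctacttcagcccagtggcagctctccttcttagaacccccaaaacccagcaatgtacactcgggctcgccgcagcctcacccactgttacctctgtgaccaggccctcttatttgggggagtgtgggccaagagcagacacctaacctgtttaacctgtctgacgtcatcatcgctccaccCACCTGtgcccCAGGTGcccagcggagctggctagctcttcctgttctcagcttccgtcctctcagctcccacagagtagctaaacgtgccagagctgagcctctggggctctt

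Grhl3 held this E-box 2 times, from -19 to -14 and from 9 to 14 relative to the start, and Rab25 held it 2 times, at -64 to -59 and, as CAGGTG, at -53 to -48. Elf3 held it once, and Ovol2 and Grhl1 did not have these letters in the window. On either strand, the E-box was in 20.2% of all 32851 RefSeq promoters at hand and in 19.7% of the 19143 promoters of genes named on the array. Among the epithelial surface and junction genes, 18 of 23 promoters searched held it (78.3%), from 14 of 18 genes, and promoters of 1 gene can overlap. AACCGGTT, the palindrome that grainyhead proteins bind, was in none of these 23 promoters or of the 5 promoters of the members, and in 0.146% of all promoters. These matches describe the letters in the windows and not binding.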

How the data were processed

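Affymetrix Mouse Clariom S arrays measured the RNA of the 4 lines, with 1 array each. The authors generated the values with Partek 7, per the submitters' processing notes, and deposited 1 value, taken as log2, for each of 22206 probe sets. The sources used here do not give the log base or how the arrays were background-corrected and normalized. The values ran from 1.48 to 19.77, and array medians lay between 4.53 and 4.75. The number of arrays limits the precision.

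Probe sets were named through the platform annotation: 19572 had 1 gene symbol, none several, and 2634 were unnamed here. All 19572 gene identifiers matched the RefSeq table (GRCm38.p6), and 0 symbols were updated. Probe sets of 1 gene were averaged (55 genes), giving 19505 genes. Differences were tested over all of these with lmFit and eBayes of limma 3.58.1 (R 4.3.3), with an intensity trend, 2 residual degrees of freedom and Benjamini-Hochberg adjustment, and called at an adjusted p under 0.05. Both fits were tested on simulated data. NHRI-HN1 against the 3 others takes its error from the spread of these lines. The comparison of tumors takes it from the spread of parent and sphere-derived line. Lines without a replicate were set beside each other by size (1 unit). Alternatives were quantile normalization, no intensity trend, leaving out the dimmest 25% of genes, the highest probe set per gene, leaving out each line, and a block for tumor of origin or sphere culture.

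The members, gene lists and comparisons were chosen with earlier results of these data known. Named genes were all members, genes of the lists beside their counts, and the 3 nearest profiles to Grhl2, Ovol1 and Esrp1. Some genes of the lists are not reported here, and each count is over the genes measured.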

Additional observations from a re-analysis of the deposited data

Results flagged for a closer look

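Against their parents, the sphere-derived lines moved in opposite directions for 4 of the 10 members, a share no higher than the 49.2% of all genes that did so. Each value is the difference NHRI-HN1 minus M1-2 less the difference NHRI-HN2 minus M2-3. It was 2.24 for Ovol2 (0.18 and -2.06), 1.57 for Grhl1 (0.72 and -0.85), 1.33 for Esrp1 (0.39 and -0.94) and 1.22 for Ovol1 (0.13 and -1.09). Ovol1, Ovol2 and Esrp1 were below the lower quartile of the array in both NHRI-HN1 and M1-2, where no direction can be read from such dim values. With 1 array per line the difference between the pairs was not tested.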

How the results depend on the processing

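Of 168 differences of single members computed under alternatives, 162 kept their direction and 6 reversed. All 6 were for NHRI-HN1 against the 3 other lines. Many of the 162 could not reverse. Fitting without an intensity trend, without the dimmest genes, with the highest probe set or with sphere culture as a block left the differences unchanged. The fit without M1-2 was counted in both comparisons. The tally is therefore no measure of robustness. With a block for tumor of origin, which estimates NHRI-HN1 minus M1-2, the differences were 0.72 for Grhl1, 0.39 for Esrp1, 0.18 for Ovol2, 0.13 for Ovol1 and 0.08 for Elf3. Leaving out lines gave -1.01 (without M1-2) to 0.07 (without M2-3) for Grhl1. In this comparison 0 to 3 members were called on leaving out a line, the 3 (Grhl2, Esrp1 and Esrp2) without M1-2, and no other alternative called any. Over all genes 121 were called, and 0 to 707 on leaving out a line (707 without M1-2, 0 without NHRI-HN2 or M2-3, with 993 and 1214 genes at an unadjusted p under 0.05), 0 without an intensity trend (1947 unadjusted) and 0 with the block (2708 unadjusted).

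Between the tumors, Grhl2 and Esrp1 kept their calls under quantile normalization, no intensity trend, without the dimmest genes, with the highest probe set, and without NHRI-HN1 or M1-2. The count of members called ran from 0 (without NHRI-HN2 or M2-3) to 3 (without M1-2, where Esrp2 was added), and was 0 with sphere culture as a block. Over all genes 111 were called, 67 without the dimmest genes, 0 with the block (2956 unadjusted), and 0 to 707 on leaving out a line (0 without NHRI-HN2 or M2-3, with 1844 and 1203 unadjusted, 184 without NHRI-HN1 and 707 without M1-2, the same fit as above). These fits without a line, and the blocked ones, have fewer residual degrees of freedom. A line left alone is assumed to vary like the others. Esrp2 and Klf5 stayed the 2 members below all others in NHRI-HN1 by 2 units and under quantile normalization. Values near the lower quartile limit the size of any difference against them, those of Grhl2 and Esrp1 in NHRI-HN1 and M1-2 included.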
